A study of Mus musculus with 4 samples.

Results

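Receptors through which mediators other than histamine can act on the endothelial barrier were examined as a group of 9 genes in endothelial cells of blood vessels (BECs) from mouse ear skin. The 9 genes were chosen by name out of 46517 genes in the count tables, by a rule that used no level, though with earlier results of these data known. They encode receptors for peptides (*Tacr1*, *Ednrb* and *Bdkrb2*), for proteases (*F2r*, *F2rl1* and *F2rl3*), for lipid mediators (*Ptafr* and *Ptger4*) and for adenosine (*Adora2a*). All samples came from adult female wild-type mice, labelled C57Bl/6 (the J substrain in the study's methods), without any treatment, and there was no second genotype or stimulus. Cells sorted as CD31+/CD45-/Lyve1- were profiled by Smart-seq2, a plate method that counts reads from 1 cell per well without molecular identifiers, on 4 plates that form 2 replicates of 2 plates (A and B) with 384 wells each.

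All 9 products are G protein-coupled receptors. Substance P (*Tacr1*), bradykinin (*Bdkrb2*), platelet-activating factor (*Ptafr*) and thrombin (*F2r*) act mainly through Gq, which raises calcium and leads to the opening of endothelial junctions. Prostaglandin E2 (*Ptger4*) and adenosine (*Adora2a*) act through Gs and cyclic AMP, which tightens endothelial junctions, while they dilate the vessels that feed the bed. In skin the leakage caused by such mediators arises mainly in postcapillary venules.

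Between 156 and 182 wells per plate of replicate 1, and between 176 and 187 of replicate 2, passed the filters for BECs, giving 338 and 363 wells with median totals of 142614.5 and 92974 reads. Clustering, from which the 9 genes and the gene lists used here had been left out, gave an artery-like class of 25 wells in replicate 1 and 36 in replicate 2, a capillary-like class of 128 and 37 wells, and a vein-like class of 118 and 115 wells. Each class was named from higher markers, 14 of the artery list (such as *Gja5* and *Sema3g*), 10 of the capillary list (such as *Gpihbp1* and *Car4*) and 9 of the vein list (such as *Selp* and *Ackr1*). The capillary-like label was weak in replicate 2. The summed level of the 12 capillary markers in its 37 wells had a median of 2532 CPM (mean 5965 CPM), against a median of 2612 CPM (mean 3409 CPM) for the 12 vein markers in the same wells and of 3012 CPM (mean 3284 CPM) for the capillary markers in vein-like wells of that replicate. In replicate 1 the capillary markers had a median of 16787 CPM in capillary-like and 4515 CPM in vein-like wells. The artery-like wells of replicate 1 held capillary markers as well, at a median of 10532 CPM beside 10864 CPM for the 16 artery markers. In replicate 2 these medians were 1533 and 11926 CPM, so the artery-like label was less distinct in replicate 1. The capillary-like values of replicate 2 given here rest on those 37 wells, or on the 22 of them with at least 20000 reads where wells were thinned. The remaining 67 and 175 wells stayed unnamed. Median reads per well were 120398 and 138987.5 in the artery-like class, 137376.5 and 49592 in the capillary-like class and 186486.5 and 182966 in the vein-like class, so the capillary-like wells of replicate 2 were the shallowest. The mural gene *Kcnj8* reached 10 CPM or more in 732 wells of replicate 1 and 91 of replicate 2. CPM are reads of a gene scaled to the total on genes in the well. These counts cover only wells that passed the count and gene limits and also met the endothelial part of the BEC filter. The limits alone were passed by 765 and 756 wells, a wider set, so no share is given. The summed level of the 10 mural markers was 362 to 680 CPM in the classes of replicate 1 and 317 to 439 CPM in those of replicate 2, against 12554 and 9558 CPM in wells with mural genes and little *Pecam1* (8 and 38 wells). The part of this background in the values below was not tested. In the tests below the replicate entered as a block, so p-values measure only how class differences varied between the replicates. The sources used here do not settle whether the replicates came from separate animals, so this variation may be technical.

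Over all BECs, *Tacr1*, *Ednrb* and *F2r* had the highest levels of the 9 receptors and *F2rl1* the lowest. Per kilobase of exon, *Tacr1* reached 14.2 and 31.9 CPM in replicates 1 and 2, *Ednrb* 28.1 and 5.66 CPM, and *F2r* 16.1 and 9.56 CPM. The next were *F2rl3* with 10.1 and 2.90 CPM per kilobase, *Adora2a* with 9.35 and 0.0663, *Ptger4* with 5.06 and 1.55, *Ptafr* with 1.86 and 3.72, and *Bdkrb2* with 2.39 and 2.34. With scran size factors in place of totals, *Ptafr* in replicate 2 was 36.4 CPM instead of 13.5 CPM, not divided by length. *F2rl1* closed the order with 0.270 and 0.365 CPM per kilobase, below each of the other genes in both replicates apart from *Adora2a* in replicate 2. Apart from *F2rl1*, the ranges over the replicates of any pair of neighbours in this order overlapped, so the order within the first 8 rests on means alone. The replicates differed most for *Adora2a* and *Ednrb*, both higher in replicate 1, whereas *Tacr1* and *Ptafr* were higher in replicate 2. These differences moved with the limit on the non-BEC genes. Below 10 CPM of them, which kept 7 and 11 wells on the plates of replicate 1, *Ednrb* was 19.5 and 25.4 CPM (120.0 and 24.2 CPM before), *Tacr1* 282 and 205 CPM (92.5 and 207 CPM before) and *Ptafr* 25.8 and 10.07 CPM (6.78 and 13.5 CPM before), so the order of the replicates turned for all 3 of them, while *Adora2a* stayed higher in replicate 1 (9.76 and 0.0465 CPM).

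**Figure D1:**
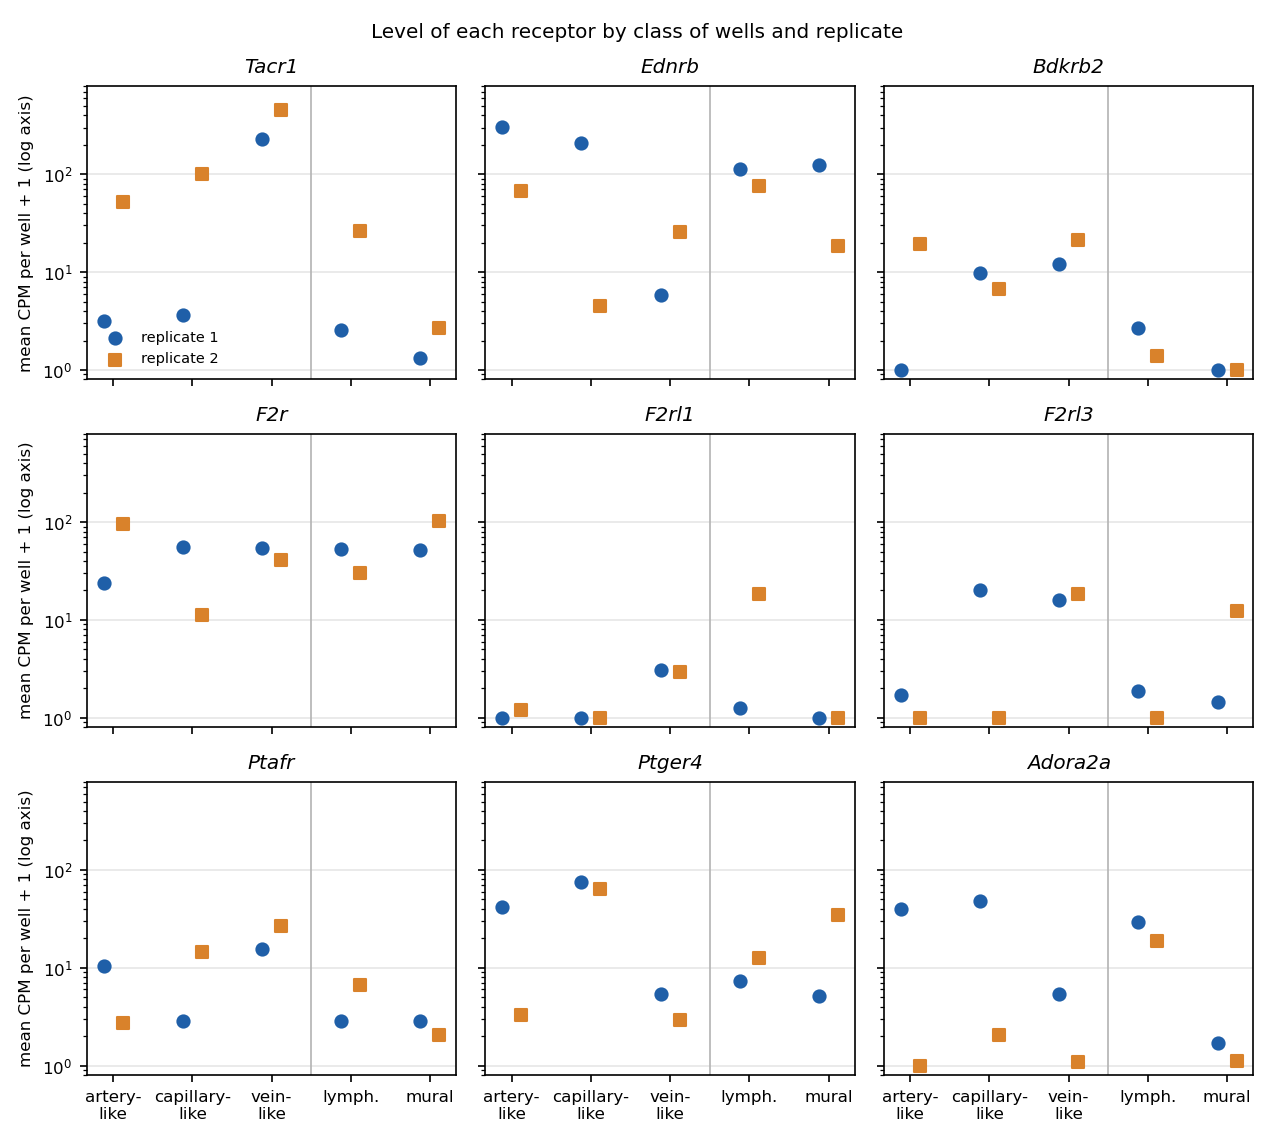
Mean CPM per well, plus 1 and on a log axis, of each receptor in the 3 BEC classes and, right of the line, in lymphatic wells (at least 100 CPM of Prox1) and mural wells. Blue circles are replicate 1 and orange squares replicate 2; Tacr1 is highest in the vein-like class in both replicates (228 and 449 CPM), whereas F2r lies between 10.1 and 101 CPM in every kind of well.

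*Tacr1*, the receptor for substance P (NK1), had its highest level in vein-like wells. Its mean level was 228 and 449 CPM in vein-like wells (replicates 1 and 2), 2.67 and 99.3 CPM in the capillary-like class, and 2.15 and 50.8 CPM in artery-like wells. On the single plates, vein-like wells held 281, 181, 316 and 605 CPM (plates 1A, 1B, 2A and 2B), capillary-like wells 2.91, 2.47, 51.2 and 120 CPM, and artery-like wells 3.09, 1.70, 79.9 and 32.3 CPM. The vein-like value was the highest on each plate, and the ranges of the vein-like and the other classes did not overlap (12.1% of all 15191 genes tested had both vein-like sums above the other 4). A read was found in 69 of 118 vein-like wells (58.5%, 95% interval 49.0 to 67.5%) and in 66 of 115 (57.4%, 47.8 to 66.6%). With wells thinned to 20000 reads, and shallower wells left out (15 of 37 capillary-like, 5 of 115 vein-like and 1 of 36 artery-like wells of replicate 2, none in the classes of replicate 1), these shares were 41.5% and 51.8%, against 4.69% and 13.6% of capillary-like wells and 0% (0 of 25 wells, which allows up to 12%) and 14.3% of artery-like wells. Intervals are exact binomial, limits for a count of 0 stand for 3 wells, and both cover counting error only.

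Many wells outside the vein-like class of replicate 1 held only a trace of *Tacr1*. Of the 38 capillary-like wells with a read in replicate 1, 31 had a single read, and none reached 50 CPM with at least 3 reads. By that stricter count, chosen after the data had been seen, *Tacr1* was present in 46 of 118 and 53 of 115 vein-like wells (39.0% and 46.1%), in 0 of 128 (which allows up to 2.34%) and 5 of 37 capillary-like wells, and in 0 of 25 and 2 of 36 artery-like wells. It was met by 0 of 17 and 1 of 74 lymphatic wells and by 0 of 8 and 0 of 38 mural wells, although 8 of those 38 had a read. Reads at trace level thus occurred in wells other than BECs as well. Among vein-like wells with a read the median was 217 and 403 CPM and the highest well held 10.8% and 6.54% of the class total, so no single well carried the level.

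In the fit of 6 sums of wells (3 classes in 2 replicates), *Tacr1* in vein-like wells exceeded the mean of the other classes by a log2 fold change of 4.91 (SE 1.14). The unadjusted p was 0.0027 and the edgeR adjusted p over 15191 genes was 0.862, so the difference did not pass the threshold of 0.05. Against vein-like wells, the artery-like wells had a log2 fold change of -5.50 (SE 1.39, edgeR adjusted p = 0.804). DESeq2 on the same sums called both differences, at 4.87 (SE 1.06, adjusted p = 0.0017) and -5.47 (SE 1.23, adjusted p = 0.0018), beside 0.974% and 2.6% of all genes, and edgeR without the filter on low counts called them too (adjusted p = 5e-05 and 0.00041). The *Tacr1* call thus depended on the tool and the filter, with 2 residual degrees of freedom, while its direction was the same under all 16 alternatives for both comparisons, with sizes from 2.09 (without replicate 1) to 6.61 (without replicate 2) for the vein-like comparison. In artery-like wells against the mean of the others, which DESeq2 also called (-3.34, SE 1.08, adjusted p = 0.0459), the direction turned to 0.46 with classes from marker scores.

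**Figure D2:**
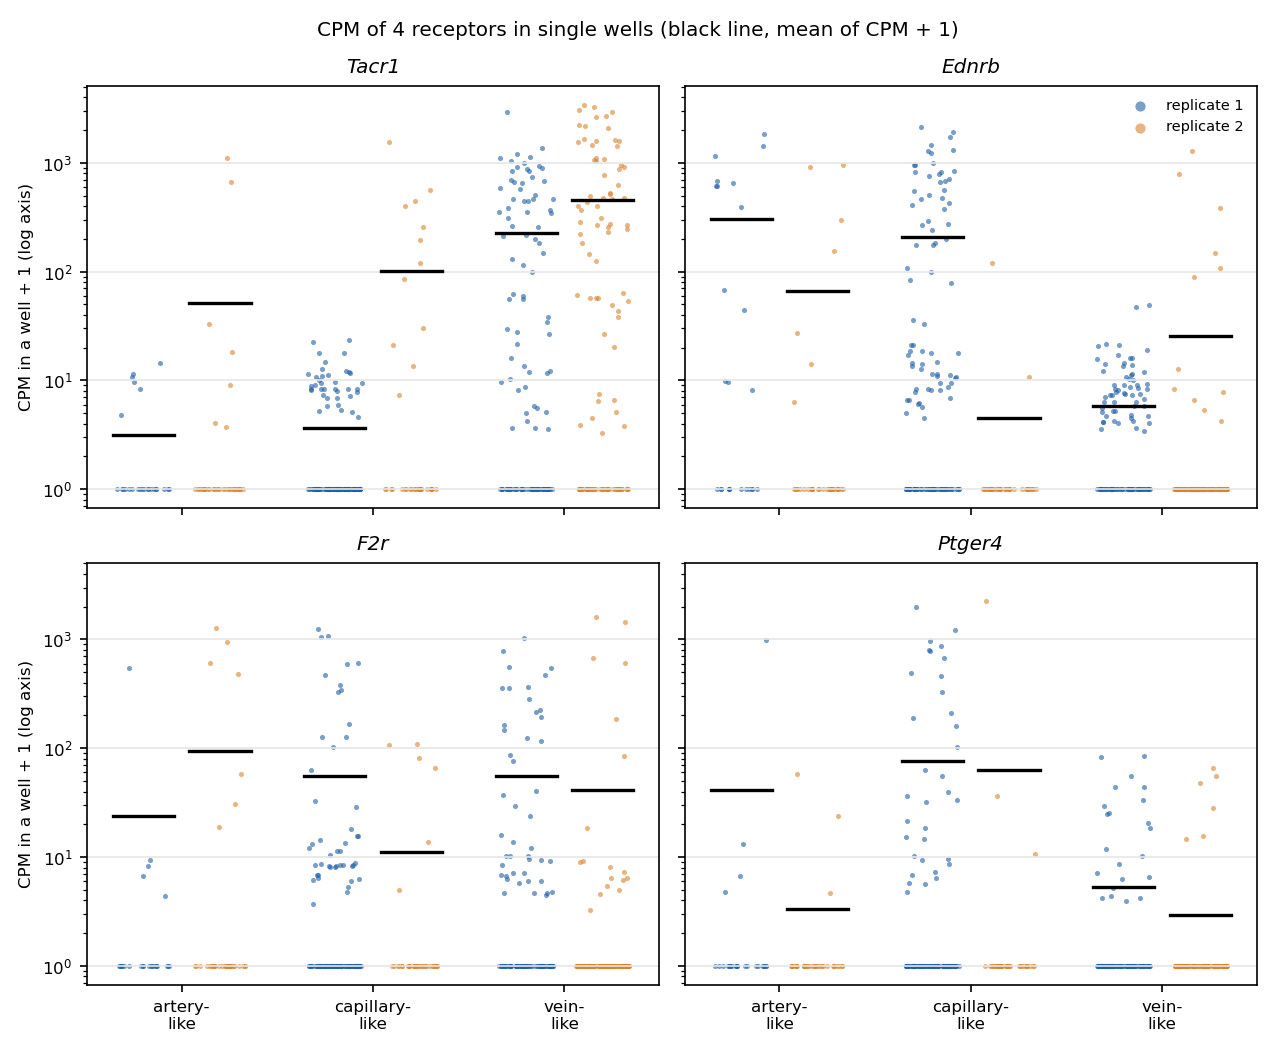
CPM plus 1 on a log axis in each single well for Tacr1, Ednrb, F2r and Ptger4, by class (columns) and replicate (blue, 1; orange, 2), with black lines at the mean of CPM plus 1 and wells without a read at the bottom. Tacr1 in vein-like wells and Ednrb in capillary-like wells of replicate 1 fall into wells above 50 CPM and wells with a trace, and the mean of Ptger4 in capillary-like wells of replicate 2 comes from 1 well.

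*Ednrb*, the endothelin B receptor that in endothelium binds endothelin and evokes nitric oxide release, was highest in artery-like wells within each replicate, with the capillary-like wells next in replicate 1 only. Its levels were 301 and 65.9 CPM in artery-like wells (replicates 1 and 2), 206 and 3.47 CPM in the capillary-like class, and 4.81 and 24.5 CPM in the vein-like class. In replicate 1 at least 50 CPM and 3 reads were found in 9 of 25 artery-like wells (36.0%) and 38 of 128 capillary-like wells (29.7%) but in 0 of 118 vein-like wells, which allows up to 2.54%. In replicate 2 the counts were 4 of 36, 0 of 37 (which allows up to 8.11%) and 6 of 115, so the vein-like wells were not the lowest there. The share with any read did not show this contrast: 61 of 118 vein-like wells of replicate 1 had a read (51.7%), 42 of them a single one, close to the 74 of 128 capillary-like wells (57.8%). Plates A and B gave 134 and 379 CPM in artery-like wells of replicate 1 and 80.5 and 56.6 CPM in those of replicate 2, and all 4 exceeded the vein-like value of the same plate (6.08, 3.70, 15.9 and 34.6 CPM). The fitted difference of artery-like from vein-like wells was 2.74 on the log2 scale with an SE of 1.90 (edgeR adjusted p = 0.923), and it turned to -1.92 when a read of all 3 BEC genes was required. *Ednrb* was also present outside BECs, at 112 and 74.5 CPM in lymphatic wells and 124 and 17.7 CPM in mural wells. Without the highest well, the lymphatic values were 69.9 and 49.9 CPM and the mural values 63.5 and 1.08 CPM.

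*Bdkrb2*, the constitutive bradykinin receptor, was found in few wells. The strict count was met by 12 of 118 and 5 of 115 vein-like wells (10.2% and 4.35%), 5 of 128 and 1 of 37 capillary-like wells, and 0 of 25 and 1 of 36 artery-like wells. No read was found in artery-like wells of replicate 1, where 0 of 25 allows up to 12%, and the 18.6 CPM of replicate 2 came from 1 well. Vein-like wells had 11.1 and 20.4 CPM, of which the highest well held 14.2% and 64.3%, and capillary-like wells 8.72 and 5.73 CPM, the latter 0.11 CPM without its highest well. The classes overlapped, and the artery-like to vein-like difference of -0.99 (log2, SE 2.60) was smaller than its error (edgeR adjusted p = 1). Its direction turned under 4 of the 16 alternatives, with values from 0.37 to 1.29, and it was -6.33 without replicate 2. Mural wells held no *Bdkrb2* read (0 of 8 and 0 of 38 wells) and lymphatic wells 1 of 17 and 1 of 74.

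Of the protease-activated receptors, *F2r* (PAR1, the main thrombin receptor of endothelium) was the most abundant and showed no class pattern. Its level was 22.6 and 94.3 CPM in artery-like, 54.5 and 10.1 CPM in capillary-like and 54.0 and 40.4 CPM in vein-like wells, so the lowest class of one replicate was the highest of the other. Mural wells had 50.5 and 101 CPM and lymphatic wells 52.3 and 29.0 CPM, within or close to the range of the BEC classes, though the 50.5 CPM came from 1 of 8 mural wells. At least 50 CPM and 3 reads were found in 18 of 118 and 6 of 115 vein-like wells and in 14 of 128 and 1 of 37 capillary-like wells. Artery-like wells met that count in 1 of 25 and 4 of 36 wells, and without its highest well the artery-like level of replicate 1 was 1.03 CPM. The log2 difference of artery-like from vein-like wells was 0.88 with an SE of 1.24 (edgeR adjusted p = 1), and its sign turned under 5 of the 16 alternatives.

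*F2rl3* (PAR4, the low-affinity thrombin receptor best known from mouse platelets) had its lowest level in artery-like wells of replicate 1. In replicate 2 it was read in vein-like wells only, among the 3 classes. It had 19.2 and 0 CPM in capillary-like, 15.04 and 17.5 CPM in vein-like and 0.690 and 0 CPM in artery-like wells. The artery-like values stand for 2 reads in 2 of 25 wells and for 0 of 36 wells, which allows up to 8.33%, and 0 of 37 capillary-like wells of replicate 2 allow up to 8.11%. The vein-like values came from 14 of 118 and 5 of 115 wells, and 68.5% of the level in replicate 2 from a single well. Capillary-like wells of replicate 1 had a read in 14 of 128, so in that replicate the shares of wells differed less between classes than the levels. DESeq2 called *F2rl3* lower in artery-like than in vein-like wells (log2 -7.61, SE 2.12, adjusted p = 0.0186) and edgeR did not (-7.94, SE 3.18, adjusted p = 0.804); with 2 reads on the artery-like side the size of either fit is uncertain, and its direction turned to 2.00 when wells with up to 300 CPM of the non-BEC genes were kept. The summed level of the 6 platelet markers was 0.153 to 8.72 CPM over the 6 class sums, and reads were found of 3 and 2 of the 6 in vein-like, 4 and 1 in capillary-like and 1 and 1 in artery-like wells of replicates 1 and 2. The part of platelet RNA in the *F2rl3* level was not tested.

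*F2rl1* (PAR2, cut by trypsin-like and mast cell proteases) was at or below 1 CPM over all BECs. It had 0 reads in 25 artery-like, 128 capillary-like and 37 capillary-like wells, which allows up to 12%, 2.34% and 8.11%, and 2 reads in the 36 artery-like wells of replicate 2. In vein-like wells 39 and 35 reads gave 2.06 and 1.97 CPM, of which 1 well held 98.7% and 74.9%. *F2rl1* lies 76575 bases from *F2r* on chromosome 13, on the same strand, and the exons of the pair do not overlap.

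Of the lipid mediator receptors, *Ptger4* (EP4, a prostaglandin E2 receptor) was highest in capillary-like wells in both replicates. It had 75.0 and 62.3 CPM there, 40.7 and 2.30 CPM in artery-like wells and 4.35 and 1.94 CPM in vein-like wells, and the capillary-like values did not overlap with the others, an order found in 3.55% of all genes. In replicate 1, 16 of 128 capillary-like wells (12.5%) met the strict count, against 3 of 118 vein-like and 1 of 25 artery-like wells. In replicate 2 a single capillary-like well with 2259 CPM held 98.1% of the level, and without it the mean was 1.2 CPM, below the 1.94 CPM of vein-like wells. The same held for the artery-like level of replicate 1, which was 0.90 CPM without its highest well. The fitted log2 differences were 3.73 (SE 1.10) for capillary-like wells against the mean of the others and -3.81 (SE 1.32) for vein-like wells, with edgeR adjusted p of 0.964 and 0.862. DESeq2 called both, at 3.79 (SE 0.92, adjusted p = 0.0082) and -3.93 (SE 0.93, adjusted p = 0.0053). Of its 6648 exon bases, 1015 are shared with the processed pseudogene *Gm15937* and 82 with *Ttc33*, both on the other strand. Without strand, reads there cannot be told apart. *Gm15937* itself had at most 0.951 CPM in any class and replicate. *Ttc33* had 2.25 and 71.2 CPM in artery-like, 19.5 and 0.851 CPM in capillary-like and 33.7 and 22.0 CPM in vein-like wells. Its part in the *Ptger4* level was not tested.

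*Ptafr*, the receptor for platelet-activating factor, was highest in vein-like wells in both replicates, at a low level. Vein-like wells had 14.5 and 25.6 CPM, capillary-like wells 1.87 and 13.3 CPM and artery-like wells 9.41 and 1.72 CPM. The vein-like and other values did not overlap, but 14.5 and 13.3 CPM lay close, and the 13.3 CPM stand for 4 reads in 4 of 37 shallow wells. At least 50 CPM and 3 reads were found in 8 of 118 and 6 of 115 vein-like wells, 1 of 128 and 0 of 37 capillary-like wells, and 1 of 25 and 0 of 36 artery-like wells. The artery-like to vein-like difference was -2.11 on the log2 scale with an SE of 1.98 (edgeR adjusted p = 0.978). *Ptafr* is also a gene of myeloid cells, and the summed level of the 8 immune markers was 0 to 14.4 CPM over the 6 class sums, highest in vein-like wells, where 5 and 4 of the 8 had reads (*Ptprc*, *Lyz2*, *Csf1r* and *Fcer1g* in both replicates, *Tyrobp* in replicate 1), whereas *Cd3e* and *Mcpt4* were at 0 in each of the 6 sums. The part of immune RNA in the *Ptafr* level was not tested.

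*Adora2a*, a Gs-coupled receptor for adenosine, was read almost only in replicate 1. It had 39.0 and 0 CPM in artery-like wells, 46.8 and 1.04 CPM in capillary-like wells and 4.38 and 0.0753 CPM in vein-like wells. The strict count was met by 15 of 128 capillary-like (11.7%), 2 of 25 artery-like and 2 of 118 vein-like wells of replicate 1 and by 0 of all 363 BECs of replicate 2, which allows up to 0.826%. The plates of replicate 1 gave 19.4 and 36.5 CPM over all BECs and those of replicate 2 0.157 and 0.247 CPM, so the gap lay between the replicates and not between plates. Lymphatic wells of replicate 2 had 17.8 CPM, of which 1 well held nearly all (0.817 CPM without it). The artery-like to vein-like difference of 1.39 (log2, SE 1.89) did not pass the test (edgeR adjusted p = 1), and its direction turned on plate A (-7.09), with sums per plate (-0.12) and without replicate 1 (-0.63).

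**Figure D3:**
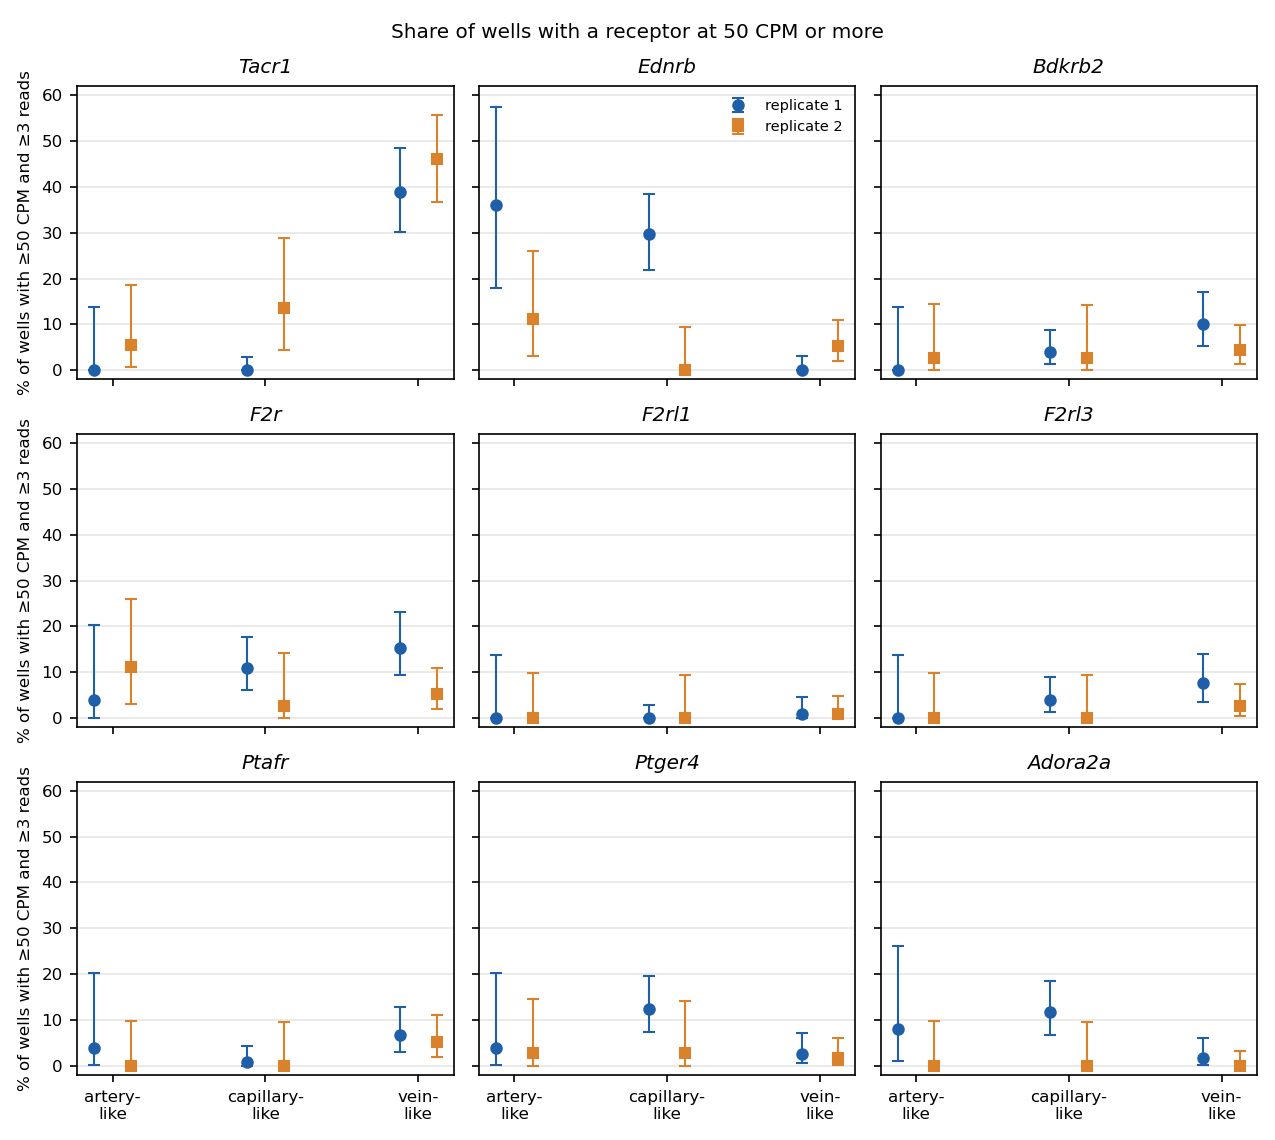
Percent of wells with at least 50 CPM and 3 reads of each receptor, by class, with exact binomial 95% intervals that cover counting error only (blue circles, replicate 1; orange squares, replicate 2). Tacr1 in vein-like wells has the highest shares (39.0% and 46.1%), and Adora2a is at 0 in all classes of replicate 2.

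Set side by side over both replicates, 3 of the 9 receptors (*Tacr1*, *Ptafr* and *F2rl1*) had both vein-like levels above the other 4 values, 1 (*Ptger4*) had both capillary-like levels above the others, and none had both artery-like levels on top. *F2rl1* was among the genes tested only because its vein-like sums passed the filter on low counts, so its vein-like order follows from that filter. The orders of *F2rl1* and *Ptger4* also rest on single wells. Without the highest well of each sum, *F2rl1* in vein-like wells of replicate 1 was 0.0266 CPM, below 0.0872 CPM in artery-like wells of replicate 2. *Ptger4* in capillary-like wells of replicate 2 was then 1.2 CPM, below the vein-like values of 3.67 and 1.38 CPM. *Tacr1* and *Ptafr* kept the vein-like order without these wells, and *Bdkrb2* then showed it as well. How many of all genes show the order without these wells was not computed, so this count has no background. With all wells kept, 12.1%, 3.55% and 7.06% of all 15191 genes tested showed the vein-like, capillary-like and artery-like form of this order. With the edgeR test, 0 of the 9 passed in any of the 4 comparisons, against a background of 0% of genes for artery-like against vein-like, 0% for artery-like against the mean of the others, 0% for capillary-like and 0.0132% for vein-like wells. In that last comparison the called genes were *Sele* and *Selp*, which are markers that named the class and thus no independent result. At an unadjusted p under 0.05, edgeR had 2 receptors (*Tacr1* and *F2rl3*) in the comparison of artery-like with vein-like wells, 1 (*Tacr1*) for artery-like, 1 (*Ptger4*) for capillary-like and 3 (*Tacr1*, *Ptger4* and *F2rl1*) for vein-like wells, of 893, 812, 578 and 811 genes. For *F2rl1* this is no result, since only its vein-like sums took it past the filter on low counts. DESeq2 called 2 (*Tacr1* and *F2rl3*), 2 (the same pair), 1 (*Ptger4*) and 2 (*Tacr1* and *Ptger4*) receptors, beside 2.6%, 3.52%, 1.36% and 0.974% of all genes. The median log2 difference of the 9 from artery-like to vein-like wells was -0.99, against -0.24 over all genes, and the latter was -0.13 with the size factors of DESeq2. For vein-like wells against the others the medians were 0.54 and 0.27. The direction of the receptors' medians was not stable, since the first was 0.37 without the replicate block and 0.70 with a limit of 300 CPM of the non-BEC genes in place of 100, and the second was 0.025 and -0.14.

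**Figure D4:**
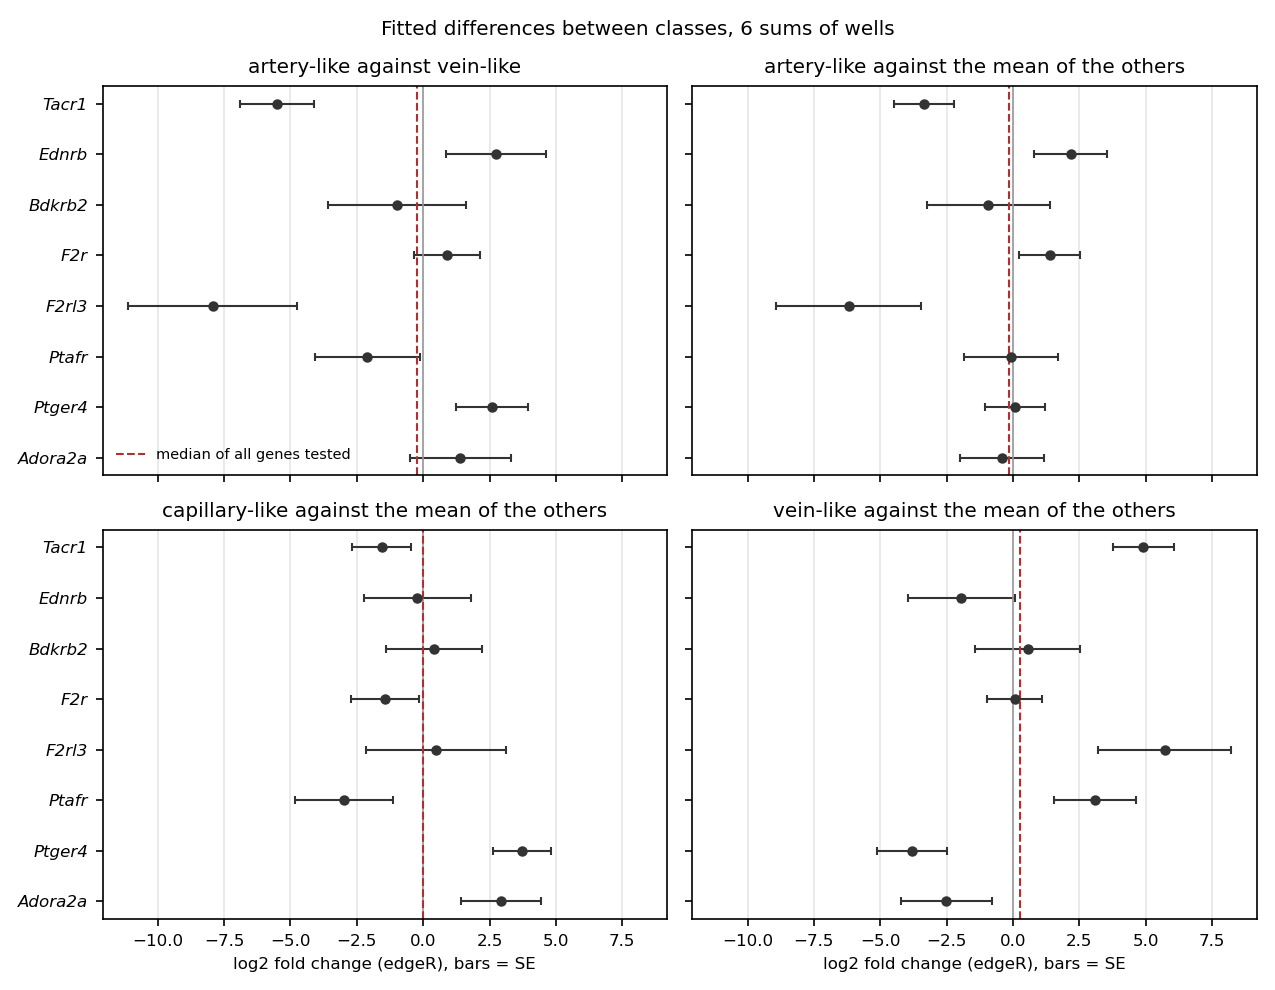
Fitted log2 fold changes (edgeR, bars are SE) of 8 receptors in the 4 comparisons of 6 sums of wells, with the median of all 15191 genes as a dashed red line. F2rl1 is left out because nearly all its reads are in vein-like wells; Tacr1 lies at -5.50 in the first comparison and 4.91 in the last, and no value passed the adjusted threshold.

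To show the regulatory sequence of *Tacr1* and *Ptafr*, which had both vein-like levels on top, the 250 bases before the RefSeq start of each are printed from 5′ to 3′ on the strand of the gene (GRCm38.p6). Capitals mark GGAA and its reverse complement TTCC, the core bound by ETS factors, which are common regulators of endothelial genes. *Tacr1* covers chr6:82402225-82402474 and *Ptafr* chr4:132563817-132564066, both on the plus strand. In GENCODE vM21, the annotation used for exon lengths, *Ptafr* starts at 132564067, just after its window, but *Tacr1* at 82402334, within its window, so both marked cores of *Tacr1* lie past that start.
Tacr1: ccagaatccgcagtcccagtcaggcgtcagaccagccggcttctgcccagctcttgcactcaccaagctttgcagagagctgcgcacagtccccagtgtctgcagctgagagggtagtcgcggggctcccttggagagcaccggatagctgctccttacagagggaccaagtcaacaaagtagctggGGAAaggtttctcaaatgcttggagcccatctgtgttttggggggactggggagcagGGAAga
Ptafr: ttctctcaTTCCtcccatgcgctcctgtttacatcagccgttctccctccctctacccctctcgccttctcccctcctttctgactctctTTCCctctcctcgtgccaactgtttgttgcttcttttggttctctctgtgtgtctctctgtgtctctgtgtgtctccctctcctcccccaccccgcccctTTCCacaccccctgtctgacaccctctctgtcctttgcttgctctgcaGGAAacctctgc
The core occurs at 2 places in the *Tacr1* and 4 in the *Ptafr* window, and 93.4% of 32851 promoters of the same length hold at least 1 with a median of 3. The half-site AGGTCA (or TGACCT), bound by nuclear receptors such as COUP-TFII, is in 14.0% of all promoters and in none of the 7 receptor promoters found in the table, which lacks *F2rl1* and *Adora2a*.

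At the full depth of the wells, at least 2 of the 9 receptors were read in 72.9% and 40.0% of vein-like wells (replicates 1 and 2), 63.3% and 24.3% of capillary-like wells and 52.0% and 22.2% of artery-like wells. These shares include single reads and move with depth. After thinning to 20000 reads, a mean of 1.16 and 0.873 of the 9 receptors was read per vein-like well, 0.906 and 0.500 per capillary-like well (128 and 22 wells) and 0.640 and 0.486 per artery-like well. At that depth at least 2 receptors were read in 31.4% and 17.3% of vein-like, 25.0% and 13.6% of capillary-like and 8.0% and 8.57% of artery-like wells. *Ednrb* was read in 6 of 63 wells with *Tacr1* in replicate 1 (9.52%) and in 74 of 274 wells without it (27.0%), but in 5.26% and 6.03% of such wells in replicate 2, where it was rare in all. *Ptafr* was read in 11.1% of wells with and 5.84% of wells without *Tacr1* in replicate 1 and in 16.8% and 6.53% in replicate 2. These shares pool the wells of all classes.

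Receptors of the same or similar ligands gave no call by edgeR. Of 32 such relatives, 14 passed the filter on low counts and 1, 2, 2 and 1 of them had an unadjusted p under 0.05 in the 4 comparisons, of 893, 812, 578 and 811 among all 15191 genes. DESeq2 called *Cysltr1* alone, lower in artery-like wells than in vein-like wells and than in the others (beside 2.6% and 3.52% of all genes) and higher in vein-like wells (beside 0.974%). Per kilobase, *Lpar6*, a lysophosphatidic acid receptor, led the list with 63.8 and 63.5 CPM, above each of the 9 receptors, followed by the nucleotide receptor *P2ry2* (21.9 and 4.04 CPM) and the thromboxane receptor *Tbxa2r* (9.39 and 4.01 CPM). *Tbxa2r* had 0.760 and 0.865 CPM in vein-like wells, 28.9 and 0 CPM in capillary-like wells and 32.0 and 18.6 CPM in artery-like wells, without a call by either tool.

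Of 34 genes that make, convert or remove the mediators, 33 had a row in the tables and 23 were tested. Again 0 passed with edgeR, while 6, 5, 2 and 6 had an unadjusted p under 0.05 in the 4 comparisons, of 893, 812, 578 and 811 genes in all. DESeq2 called 5 of the 23 lower in artery-like than in vein-like wells (*Lpcat2*, *Nt5e*, *Ptges2*, *Ptgs1* and *Slco2a1*), beside 2.6% of all genes. Against the mean of the others it called 3 lower in artery-like wells (*Nt5e*, *Ptges2* and *Slco2a1*) and 1 higher (*Edn1*, the precursor of endothelin-1), beside 3.52% of all genes. In vein-like wells it called 4 higher (*Lpcat2*, *Nt5e*, *Ptgs1* and *Slco2a1*), beside 0.974%, and none in capillary-like wells. The 3 with the highest level per kilobase were *Entpd1*, which breaks down extracellular ATP (110 and 141 CPM), *Thbd*, which turns thrombin towards protein C (139 and 104 CPM), and *Ece1*, the endothelin-converting enzyme (133 and 109 CPM). *Thbd* had 647 and 692 CPM in vein-like wells against 240 to 490 CPM in the other classes.

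The 42 G proteins and effectors held 40 tested genes, of which none passed with either tool and 2, 1, 1 and 1 had an unadjusted p under 0.05 with edgeR, beside the same 893, 812, 578 and 811 of all 15191 genes. *Gng11* (552 and 299 CPM per kilobase), *Gnai2* (138 and 106) and *Myl9* (105 and 139) led this list, and each exceeded all 9 receptors. *Myl9* is also a smooth muscle gene, and in replicate 2 it had 20.4 to 64.4 CPM in the 3 classes against 161 CPM over all BECs, which include an unnamed cluster with mural markers. *Gnai2*, the alpha subunit of Gi, stayed between 323 and 531 CPM in every class and replicate.

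For the 4 receptors with at least 10 CPM in both replicates, genes of similar pattern were sought over the sums of 5 clusters in 2 replicates. Pearson's r of log2(CPM + 10) over these 10 sums, among 8278 genes, was highest for *Tacr1* with *Rasa4* (0.931), *Ctnnal1* (0.903) and *Abcg2* (0.896). *Ednrb* was nearest to *Tpst1* (0.929), *Gclm* (0.927) and *Btnl9* (0.90). *F2r* was nearest to *Tfpt* (0.938), *Vps9d1* (0.937) and *Nfkbie* (0.934), and *Ptger4* to *Top3b* (0.824), *Golga3* (0.824) and *Arel1* (0.802). The sums share replicates and depth, and these values describe the 10 sums only.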

How the data were processed

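Ear dermal BECs were measured by Smart-seq2 on 4 plates of 384 wells in 2 replicates. The authors sequenced single 50-bp reads and, per the labels, used TopHat2 2.1.1, SAMtools 0.1.18 and Subread 1.4.6-p5 with mm10 (GRCm38); the annotation release is not given in the sources used here. They deposited counts of reads for each gene in every well, not normalized. The 92 spike-ins were left out. Of 46517 identifiers, 46005 matched a symbol of GENCODE vM21, and *Klkb1* had no unique row. Whether counting used strand is not given in the sources used here. Plate totals were 31864976 to 74739095 reads, and wells kept held 1927 to 569668.

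Kept wells had 600 counts or more, 500 to 8000 genes, reads of 2 or 3 BEC genes (*Pecam1*, *Cdh5*, *Kdr*) and less than 100 CPM of any non-BEC gene (*Kcnj8*, *Pdgfrb*, *Ptprc*, *Prox1*, *Lyve1*). Doublets were limited only by the number of genes. With scran 1.30.0, size factors were estimated and 1000 variable genes chosen, and a graph on 15 principal components and 15 neighbours was clustered with leidenalg 0.10.2 at resolution 0.6, the lowest of 7 that gave all 3 classes in both replicates. A cluster was named with at least 5 higher markers (1.25 times), 1.5 times those of the next list, and 10 wells. This rule was set after trial clusterings and their leading genes, *Tacr1* and *Ptger4* among them, had been seen. The members, lists, tests and alternatives were chosen with earlier results of these data known.

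Counts were summed per replicate and class, and edgeR 4.0.16 (TMM, quasi-likelihood test, 2 residual degrees of freedom) was run on the 15191 genes that reached 10 counts in 2 or more sums, with Benjamini-Hochberg adjustment over them. The replicate entered as a block because its classes share animals and plates; deviations of its sums from class means correlated at 0.111, 0.117 and 0.104. DESeq2 1.42.0, limma 3.58.1 (log2, pseudocount 1) and 14 further settings were alternatives. Levels are means of CPM per well, and wells were not used as replicates. The code was tested on simulated data. The genes named are all members, list genes past the threshold, the 3 highest per kilobase of each list and the 3 most alike by pattern. *Cysltr1*, *Lpcat2*, *Nt5e*, *Ptges2*, *Ptgs1*, *Slco2a1*, *Edn1*, *Gm15937* and *Ttc33* were picked with their values already known. R 4.3.3 and Python 3.11.15 were used.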

Additional observations from a re-analysis of the deposited data

How the results depend on the processing

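Genes called by edgeR (0, 0, 0 and 2 for artery-like against vein-like, artery-like, capillary-like and vein-like wells) rose to 395, 534, 206 and 148 with DESeq2 and to 64, 60, 33 and 51 without the filter on low counts, and receptors called (0 in each) to 2, 2, 1 and 2 and to 1, 1, 0 and 1. Under the other alternatives no receptor was called. Plate A alone gave 22, 35, 36 and 25 genes and wells thinned to 20000 reads 12, 15, 4 and 13. Sums per plate gave 5, 13, 0 and 14, plate B alone 0, 1, 0 and 0, fewer than 10 CPM of the non-BEC genes 1, 4, 1 and 2, and fewer than 300 CPM 1, 0, 0 and 4. The next resolution gave 1, 0, 0 and 3. For vein-like wells, no replicate block, a read of all 3 BEC genes and classes from marker scores gave 1 gene each and limma 0. The block, which pairs the classes of a replicate, changed no call of a receptor. Without a replicate no spread was left to test.

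Of the values of 12 fold changes reported under the alternatives, 175 of 191 kept their direction. From artery-like to vein-like wells, *F2r* reversed to -0.63 with marker scores, -0.74 and -0.90 with limits of 10 and 300 CPM, -0.010 with limma and -0.29 without replicate 2 (1.37 without replicate 1). *Bdkrb2* reversed to 0.85 at 300 CPM, 0.37 without the block, 1.08 on plate A and 1.29 without replicate 1 (-6.33 without replicate 2). *Adora2a* reversed to -7.09 on plate A, -0.12 with sums per plate and -0.63 without replicate 1 (2.21 without replicate 2). *Ednrb* reversed to -1.92 with a read of all 3 BEC genes, *Ptger4* to -0.97 on plate A and *F2rl3* to 2.00 at 300 CPM. *Tacr1* in artery-like wells against the others turned to 0.46 with marker scores. The cause was not tested. The mean without the highest well was an alternative chosen after seeing the data. By it, 35 of 54 class levels either fell by at least 1.5 times or were 0 with and without that well. Thinning moved 25 of 54 shares out of their interval. Over all BECs, 17 of 90 mean levels moved past 1 SD under an alternative. The 90 include the levels without replicate 1 and without replicate 2, which cannot move past the SD of the 2 replicates. The depth of the capillary-like wells of replicate 2 limits what their zeros can show.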
